A study of Mus musculus with 6 samples.

Results

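Metabotropic glutamate receptors are G protein-coupled receptors that sense glutamate, the main excitatory transmitter of the brain. The genes Grm2, Grm3, Grm4, Grm5, Grm7 and Grm8 were taken as the rows of the deposited isoform table whose transcript name, without its final number, is one of these symbols. They held 28 of 133944 isoforms and 6 of 53354 gene symbols. RNA was sequenced from the hippocampi of C57BL/6 mice aged 3 months, with 1 library per mouse, from 3 N-cre mice, which carry Nes-Cre, and 3 N-cre;Fox1 mice, which carry the same Nes-Cre and 1 R26-Rbfox1 flox allele. In this allele a murine Rbfox1 cDNA under a CAG promoter stands behind a stop cassette in the Gt(ROSA)26Sor locus on chromosome 6, and Cre, driven by the nestin promoter, removes the cassette. The study describes this Cre activity in the hippocampus as limited to neurons, while the sequenced tissue holds other cells as well. Both genotypes carried the Cre transgene, so that a mouse without Cre was not part of the comparison. The allele was targeted in 129/sv embryonic stem cells and backcrossed to C57BL/6J, and Grm7 and Grm8 lie on the same chromosome as the locus, 1.5 Mb and 84.9 Mb from it. Rbfox1 is an RNA-binding splicing factor. The comparison asks whether the R26-Rbfox1 allele, made to raise it, goes with another level or another isoform choice of these receptors.

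Group I receptors, here Grm5, couple through Gq to phospholipase C and calcium release and lie mostly around the postsynaptic density, where Homer proteins bind their long intracellular tails. Group II receptors, Grm2 and Grm3, and group III receptors, Grm4, Grm7 and Grm8, couple to Gi/o, lower cyclic AMP and act largely at presynaptic terminals, where they reduce transmitter release. Grm3 is also a receptor of astrocytes. Several of these genes are spliced near the end of the coding sequence, which changes the intracellular tail and leaves the glutamate-binding domain as it is.

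The expected counts, which are RSEM's estimates of the read pairs from each isoform, summed to between 40463587 and 62141336 per mouse, and 13988 to 22362 of them per mouse fell on the 6 receptor genes. Normalized counts below are counts scaled to the library size by edgeR's TMM method, and a log2 change is the fitted log2 fold change of N-cre;Fox1 against N-cre with its standard error (SE). Rbfox1 itself had normalized counts, summed over isoforms, of 15286, 14456 and 14698 in N-cre and 15939, 13571 and 15283 in N-cre;Fox1 mice, so that the genotypes overlapped and the labels could not be checked from this sum. The study reported a modest rise of Rbfox1 mRNA and protein in N-cre;Fox1 hippocampi, which these summed counts do not show. Of marker lists for hippocampal cells, all 4 general neuron markers were well counted and overlapped between genotypes. Markers of the choroid plexus, a tissue of the ventricle beside the hippocampus, at a summed normalized count of 1389 to 1904 in 4 mice, reached 118592 in N-cre replicate 3 and 266916 in N-cre;Fox1 replicate 2, and results that turn on these mice are also given without them. On the other lists 0 markers had an adjusted p under 0.05, and the genotypes did not overlap for 3 of 6 astrocyte and 1 of 5 oligodendrocyte markers (higher in N-cre;Fox1 mice), for 1 of 4 CA1 pyramidal, 1 of 5 interneuron and 1 of 4 striatal markers (lower), and for 0 markers of oligodendrocyte precursors, microglia, endothelium, CA3 pyramidal cells, dentate granule cells or thalamus. Of all genes tested, 6.06% were higher and 6.11% lower without overlap. Xist, which is transcribed from the inactive X chromosome, had normalized counts of 22030 to 23514 in replicate 1 of each genotype and 17.3 to 22.2 in the other 4 mice, and the labels give no sex.

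Isoforms of Grm5, Grm7, Grm8 and Grm2 differ at 4 places. The sequences across these junctions show what a read that crosses them holds in either form. RSEM also assigned reads that cross none of them, so that the counts do not rest on these junctions alone. The lower-case bases are the 15 shared bases before the junction and the capitals are the first 15 bases after it, in transcript orientation, from GENCODE transcripts of mm10.
Grm5-204, into its extra exon: tggggaaaccctaagGTACAAAGACAGGAG
Grm5-202, past that exon: tggggaaaccctaagCTCCAATGGAAAATC
Grm7-201, into its extra exon: atgtagacccaaacaACTGTATACCACCAG
Grm7-202, past that exon: atgtagacccaaacaGCCCTGCTGCAAAAA
Grm8-202, into a segment near the stop codon: gtcttgaaaccaacaGTAAGTCATCTGTAG
Grm8-201, past that segment: gtcttgaaaccaacaCTTCTTCTACCAAGA
Grm2-201, into an internal coding segment: tatcgctaccagaagGTAGGCTACTGGGCA
Grm2-203, past that segment: tatcgctaccagaagACCCGCAAGTGCCCG

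The extra exon of Grm5-204, at chr7:88116193-88116288 on the plus strand, is 96 nt long and all coding, adds 32 codons in frame and makes the form known as mGlu5b. The extra exon of Grm7-201, at chr6:111501510-111501601 on the plus strand, has 92 nt, of which 68 are coding, and makes mGlu7b, whose tail ends differently from that of mGlu7a (Grm7-202). In Grm8 a segment of 55 nt at chr6:27285680-27285734 on the minus strand, 47 nt of it coding, is present in Grm8-202 and Grm8-203 and absent from Grm8-201, and all 3 have a coding sequence of 2724 nt. The Grm2 segment, at chr9:106647271-106648104 on the minus strand, has 834 coding nt, or 278 codons in frame. It begins with gt and ends with ag, the letters at the ends of most introns, and Grm2-203 is the annotated form without it.

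Per length of transcript, Grm5 was the most abundant of the 6 receptor genes and Grm8 the least. On the scale of CPM per kilobase, where each isoform's count is divided by the library size and by the isoform's own length, Grm5 had a level of 23.2 ± 0.60 (SD over 6 mice) and Grm2 of 16.2 ± 1.29. The level of Grm7, the receptor of the presynaptic active zone, was 12.3 ± 0.246, and that of Grm3 was 10.4 ± 0.624. Grm4 followed with a level of 3.63 ± 0.164 and Grm8 with 2.14 ± 0.366, so that the level of Grm5 was 10.8 times that of Grm8. The ranges over the 6 mice did not overlap for any of the 5 pairs of neighbours in this order. The narrowest step was from Grm7, at a level between 12 and 12.6, to Grm3, at 9.64 to 11.2, and the widest was from Grm3 to Grm4, at a ratio of levels of 2.87. The levels depend on the isoform lengths used, as dividing by the length of the most counted isoform gave Grm2 a level of 13.5, Grm5 22.5 and Grm7 11.7, with the same order.

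**Figure D1:**
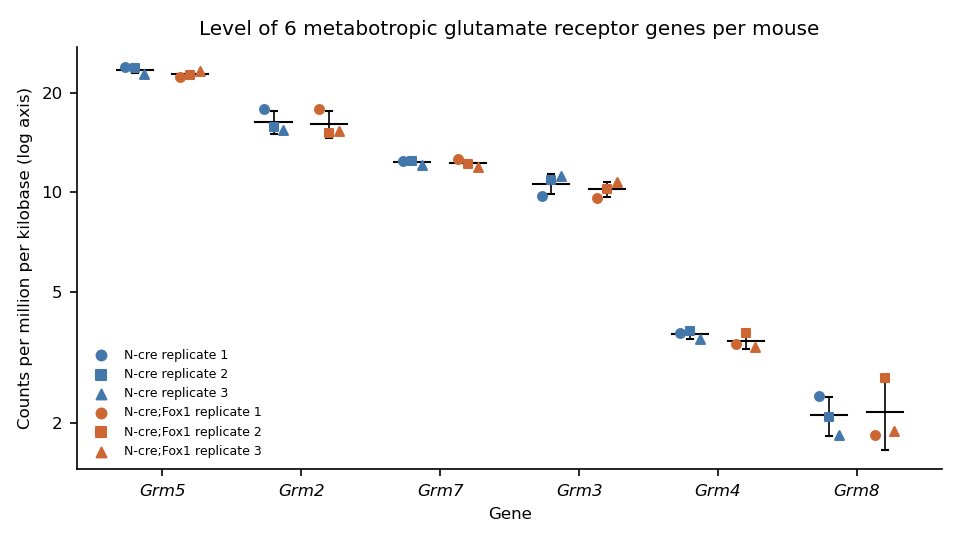
Level of each receptor gene in each mouse, in CPM per kilobase on a log axis, with genes ordered by level. Points are mice, bars the mean and SD of 3 mice per genotype. The genotypes overlap for each gene, while the 6 genes stand in the same order in each mouse, from Grm5 at 22.4 to 23.9 down to Grm8 at 1.84 to 2.74.

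Summed over the 6 genes, the receptor mix was alike in both genotypes. Group II, Grm2 with Grm3, made up 39.3 ± 0.478% of the summed level per length in N-cre and 39.2 ± 1.29% in N-cre;Fox1 mice (SD, n = 3 each). Group I, here Grm5 alone, made up 34.3 ± 0.270% and 34.0 ± 0.953%, and group III 26.5 ± 0.251% and 26.8 ± 1.08%. The genotypes overlapped for each group, with exact permutation p of 0.7 for group I, 1 for group II and 0.9 for group III, each two-sided and adjusted to 1 over the 3 tests. With 3 against 3 mice the smallest p this test can give is 0.1.

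No receptor gene passed the threshold between genotypes, and the counts of each overlapped. In edgeR's quasi-likelihood test, Benjamini-Hochberg adjusted over 18924 genes, 0 of 6 had an adjusted p under 0.05, against 5 genes or 0.0264% of all tested, and 0 of 6 had an unadjusted p under 0.05, against 6.19% (3.59% higher in N-cre;Fox1 and 2.6% lower). DESeq2 and limma-voom also gave 0 of 6 with an adjusted p under 0.05. The genotypes did not overlap for 0 of 6 receptor genes, against 12.2% of all genes (6.06% higher and 6.11% lower). The log2 changes lay between -0.14 and -0.02, all 6 below 0, with a median of -0.05, where the median over all genes was 0.00 and 9464 of 18924 genes were below 0. The median size of the log2 change, sign aside, was 0.0485 for the receptors and 0.0668 for all genes. The set of all genes was not matched to the receptors in level and includes genes with fewer counts.

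Grm5 (ENSMUSG00000049583.15; chr7:87584168-88134907, plus strand) had normalized counts of 9887, 9863 and 9524 in N-cre and 9302, 9370 and 9738 in N-cre;Fox1 mice. The highest N-cre;Fox1 mouse lay among the N-cre mice, above N-cre replicate 3 alone. Without both mice with choroid plexus markers, of which N-cre replicate 3 is 1, the genotypes did not overlap. The log2 change was then -0.05 (SE 0.0404, edgeR adjusted p 0.952). With all 6 mice the log2 change was -0.04 (SE 0.0348, edgeR adjusted p 0.919). Its 95% interval ran from -0.12 to 0.03, which corresponds to a ratio of counts from 0.920 to 1.02. Of the 6 genes it varied least, with a coefficient of variation over the 6 mice of 2.62%.

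Of the group II receptors, Grm2 (ENSMUSG00000023192.12; chr9:106643095-106656082, minus strand) had normalized counts of 3762, 3241 and 3200 in N-cre and 3624, 3239 and 3178 in N-cre;Fox1 mice. Its log2 change was -0.03 (SE 0.0768, edgeR adjusted p 0.986), with an interval of the ratio from 0.867 to 1.11. Replicate 1 was high in both genotypes. Grm3 (ENSMUSG00000003974.6; chr5:9485541-9725170, minus strand), with 1 annotated isoform, had normalized counts of 1577, 1762 and 1807 in N-cre and 1560, 1660 and 1733 in N-cre;Fox1 mice, at a log2 change of -0.05 (SE 0.0617, edgeR adjusted p 0.954). Here replicate 1 was low in both genotypes, so that the same mice stood apart in opposite directions for these receptors.

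The mice labelled replicate 1 were those with high Xist counts. Grm2 had normalized counts of 3624 to 3762 in these mice and 3178 to 3241 in the other 4. Grm3 had 1560 to 1577 in them and 1660 to 1807 in the other 4, while the remaining 4 receptor genes overlapped. Over all genes tested, 8.03% were higher and 8.10% lower in both mice with high Xist counts than in each of the others, and with 1 such mouse per genotype a difference in sex and a difference between single animals cannot be told apart. With a term for Xist in edgeR's model, the log2 change between genotypes was -0.02 (SE 0.0365) for Grm2 and -0.05 (SE 0.0463) for Grm3.

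The group III receptor Grm4 (ENSMUSG00000063239.17; chr17:27422387-27521403, minus strand) had normalized counts of 914, 922 and 856 in N-cre and 816, 891 and 823 in N-cre;Fox1 mice. The log2 change was -0.09 (SE 0.0638, edgeR adjusted p 0.901). N-cre;Fox1 replicate 2 lay above the lowest N-cre mouse, replicate 3, and these are the mice with choroid plexus markers. Without both, the genotypes did not overlap, at 914 and 922 in N-cre and 816 and 823 in N-cre;Fox1 mice. The log2 change was then -0.16 (SE 0.0777), at an unadjusted p of 0.0645 and an edgeR adjusted p of 0.899. Smaller groups separate more readily, and no share over all genes was taken in this setting. Markers of the striatum, where Grm4 and Grm5 are also expressed, had a summed count of 1185 to 1367 in N-cre and of 803 to 1250 in N-cre;Fox1 animals, and their part in the receptor counts was not tested. Grm7 (ENSMUSG00000056755.13; chr6:110645581-111567230, plus strand) had 2656, 2680 and 2554 in N-cre and 2693, 2580 and 2526 in N-cre;Fox1 mice. Its log2 change was -0.02 (SE 0.0393, edgeR adjusted p 0.981), with an interval of the ratio from 0.930 to 1.05. The highest and the lowest mouse were both N-cre;Fox1.

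Grm8 (ENSMUSG00000024211.15; chr6:27275119-28135178, minus strand) had the fewest counts and the widest interval. Its normalized counts were 404, 404 and 361 in N-cre and 322, 421 and 320 in N-cre;Fox1 mice, at a log2 change of -0.14 (SE 0.124, edgeR adjusted p 0.930) and an interval of the ratio from 0.752 to 1.1. N-cre;Fox1 replicate 2, the mouse with the highest count, is the one with the highest choroid plexus markers. Without this mouse and N-cre replicate 3, the other mouse with these markers, the log2 change of Grm8 was -0.33 (SE 0.106), at an unadjusted p of 0.0110 and an edgeR adjusted p of 0.660, so that it did not pass the threshold with or without them. The part of choroid plexus tissue in these counts was not tested.

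**Figure D2:**
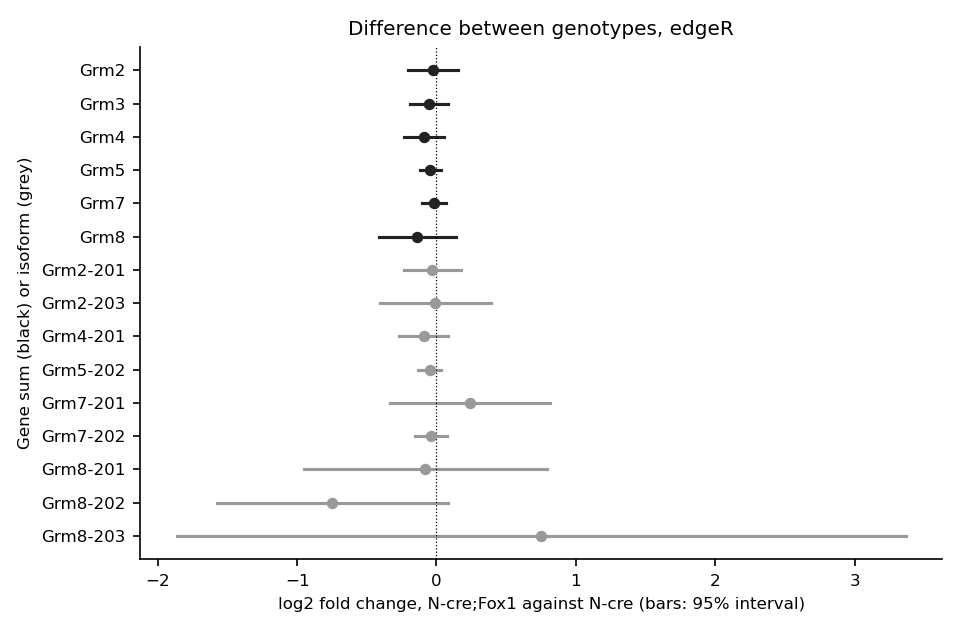
Log2 fold change of N-cre;Fox1 against N-cre from edgeR for the 6 gene sums (black) and for their isoforms with a mean share of at least 5% of the gene's counts (grey), with 95% intervals. Each interval spans 0. The intervals are narrowest for Grm5 and its main isoform Grm5-202 and widest for Grm8-203, which spans -1.86 to 3.37.

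Of the 28 isoforms, 14 passed the filter on low counts, 10 had fewer counts and 4 (Grm5-201, Grm8-205, Grm8-207 and Grm4-204) were at 0 in each mouse, where 3 counts, the limit that a count of 0 allows, correspond to at most 0.0741 CPM (counts scaled to library size alone). The 10 with fewer counts held at most 15.3 expected counts in a mouse, the most being Grm5-203. Of the 14 tested, 0 had an adjusted p under 0.05 by edgeR over 50556 isoforms, where 0 isoforms or 0% passed, and 0 had an unadjusted p under 0.05, against 4.78% of all isoforms. DESeq2 and limma-voom also gave 0 receptor isoforms with an adjusted p under 0.05. The genotypes did not overlap for 0 of 14, against 11.5% (5.85% higher and 5.68% lower). Shares of the gene's counts were compared for 13 isoforms by two-sided exact permutation tests, the adjusted p was 0.9 for each, and the genotypes overlapped for each. The shares rest on how RSEM divided reads that fit more than 1 isoform, and a binomial interval given below covers counting error only.

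In Grm5, nearly all counts were assigned to the form without the extra exon, mGlu5a. Grm5-202 held 98.4 ± 0.0692% of the gene's counts in N-cre and 98.3 ± 0.363% in N-cre;Fox1 mice, with an exact p of 0.8. The share of Grm5-204, the mGlu5b form, was 1.44%, 1.31% and 1.42% in N-cre and 1.23%, 1.94% and 1.45% in N-cre;Fox1 mice. N-cre;Fox1 replicate 2 was the highest and replicate 1 the lowest of the 6, so that the genotypes overlapped and the difference of 0.155 points had an exact p of 0.7. In N-cre replicate 3, the shallowest library, the Wilson 95% interval of the share of the exon among the full-length forms was 1.17% to 1.72%, at 103 of 7270 counts. These forms differ in more than the exon, because Grm5-202 has 3253 nt that no other isoform has, in a longer last exon, so that the share also depends on coverage of the 3′ end.

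In Grm7, the form without the extra exon, mGlu7a, also dominated. Grm7-202 held 92.9 ± 0.705% of the counts in N-cre and 91.7 ± 2.17% in N-cre;Fox1 mice, and its log2 change was -0.04 (SE 0.0472, edgeR adjusted p 0.990). Grm7-201, the mGlu7b form, held 5.31%, 6.85% and 5.93% in N-cre and 7.01%, 9.20% and 5.37% in N-cre;Fox1 mice. The mean was 1.17 points higher in N-cre;Fox1 mice, the genotypes overlapped and the exact p was 0.4. In counts, the log2 change of Grm7-201 was 0.24 (SE 0.237, edgeR adjusted p 0.990), with an interval from -0.33 to 0.81, and without both mice with choroid plexus markers it was -0.001. With each mouse left out in turn the share difference lay between 0.163 points, without N-cre;Fox1 replicate 2, and 2.08 points, without N-cre;Fox1 replicate 3. Grm7-201 has no nt of its own outside its junction. On the opposite strand, Gm20387 shares 130 exonic nt with Grm7 at a mean count of 41.4, against 116 to 261 counts of Grm7-201, and whether reads were counted by strand is not given in the sources used here. The third tested form, Grm7-204, annotated as a target of nonsense-mediated decay, held 0.765 ± 0.580% and 0.857 ± 0.372%.

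In Grm2, a minor part of the counts, 15.9 ± 1.16% in N-cre and 15.95 ± 2.69% in N-cre;Fox1 mice, was assigned to the form without the 834-nt segment of the coding sequence. The share of Grm2-203 was 14.6%, 16.6% and 16.6% in N-cre and 18.3%, 13.0% and 16.6% in N-cre;Fox1 mice. The highest and the lowest share were both in N-cre;Fox1 mice, and the mean difference was 0.0503 points (exact p 0.9). Grm2-201 made up almost all of the remainder, with 84.0 ± 1.15% in N-cre and 84.0 ± 2.71% in N-cre;Fox1 mice. The Wilson 95% interval of the share of forms that keep the segment in N-cre replicate 3 was 81.9% to 84.8%, at 2040 of 2446 counts. Grm2-201 has 744 nt of its own, Grm2-203 only 2 nt and the junction printed above, and an opposite-strand gene, Gm28111, shares 470 exonic nt with Grm2 at a mean count of 2.7.

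Grm4 was counted almost wholly as Grm4-201, at 98.5 ± 1.43% in N-cre and 98.3 ± 0.385% in N-cre;Fox1 mice. Grm4-202, with another last exon, had normalized counts of 0, 16.6 and 22.2 in N-cre and 10.8, 7.29 and 13.4 in N-cre;Fox1 mice, too few to compare. Its log2 change was -0.26 (SE 1.14, edgeR adjusted p 0.998).

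Grm8 was the receptor whose assigned isoforms varied most among the mice. Grm8-202, which has an extra upstream exon and 169 nt of its own over the whole transcript, held 32.0%, 77.3% and 86.2% of the counts in N-cre and 42.0%, 36.7% and 49.5% in N-cre;Fox1 mice. Grm8-203, which has a coding sequence of the same length and no nt or junction of its own, held 45.6%, 7.45% and 1.26% in N-cre and 41.7%, 33.5% and 31.0% in N-cre;Fox1 mice. N-cre replicate 1 resembled the N-cre;Fox1 mice, while N-cre replicates 2 and 3 had almost all of these counts on Grm8-202. Those replicates also had the lowest library totals, 44725966 and 40463587 counts, against 54352011 to 62141336 in the other libraries. Whether depth had a part in this split was not tested. The exact p was 0.4 for each share, at mean differences of -22.4 and 17.3 points. These differences turn on single N-cre mice, with -39.0 and 31.1 points without N-cre replicate 1 and -11.9 and 8.89 points without N-cre replicate 3. Without both mice with choroid plexus markers they were -8.88 and 9.84 points.

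In counts, Grm8-202 had normalized values of 130, 312 and 311 in N-cre and 135, 155 and 158 in N-cre;Fox1 mice, at a log2 change of -0.75 (SE 0.342) at an unadjusted p of 0.0703 and an edgeR adjusted p of 0.990. This value depends on N-cre replicate 1, without which the log2 change was -1.06 (SE 0.142), at an unadjusted p of 0.000530 and an edgeR adjusted p of 0.481. Grm8-203 had 185, 29.6 and 3.92 in N-cre and 134, 141 and 98.5 in N-cre;Fox1 mice, at a log2 change of 0.75 (SE 1.07). Without N-cre replicate 1 it was 2.87 (SE 0.794, unadjusted p 0.0151, edgeR adjusted p 0.878). Without both mice with choroid plexus markers the log2 changes were -0.59 (SE 0.470) for Grm8-202 and 0.10 (SE 0.886) for Grm8-203. The sum of both forms, which does not depend on how reads were divided between them, was 315, 342 and 315 in N-cre and 269, 296 and 256 in N-cre;Fox1 mice. Chosen after its values were seen, this sum was 324 ± 15.4 and 274 ± 20.3 (SD, n = 3 each), lower in each of 3 N-cre;Fox1 animals than in the lowest N-cre mouse, with a two-sided exact p of 0.1, the smallest possible. Read against the 5.68% of isoforms that were lower without overlap, it is 1 sum among many that could have been formed.

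The choice at the other end of Grm8, the 55-nt segment near the stop codon, was steadier. It was present in 84.0%, 85.9% and 88.3% of the counts of the 3 full-length forms in N-cre and 88.5%, 79.7% and 87.2% in N-cre;Fox1 mice, with an exact p of 0.9. N-cre;Fox1 replicate 2 had the lowest share. The Wilson 95% interval in N-cre replicate 3, at 242 of 274 counts, was 84.0% to 91.6%, wider than the range among the N-cre mice. The short form Grm8-204, with 5 exons at the upstream end of the gene, held 4.48%, 0% and 0% in N-cre and 3.10%, 10.05% and 5.87% in N-cre;Fox1 mice (exact p 0.2). The mice at 0% were again those with the lowest library totals.

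**Figure D3:**
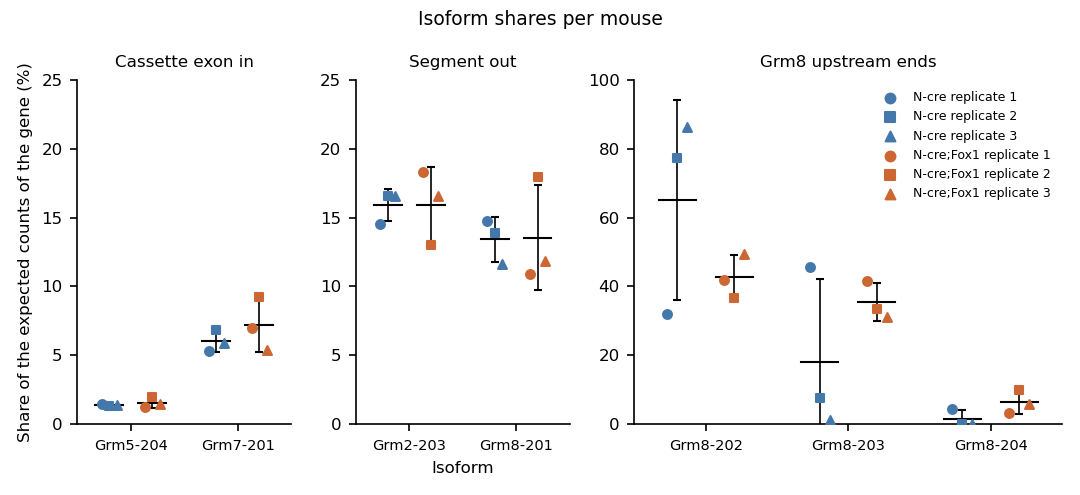
Share of the gene's expected counts held by isoforms of Grm5, Grm7, Grm2 and Grm8 in each mouse, in percent. Points are mice, bars the mean and SD of 3 mice per genotype (an SD bar that would pass below 0 is cut at the axis), and the right panel has its own scale. Shares of the forms that differ within the coding sequence stay below 20%, with N-cre;Fox1 replicate 2 at an extreme in each, while Grm8-202 spreads from 32.0% to 86.2% among the N-cre mice.

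TGCATG, the hexamer that Rbfox proteins bind, was searched on the transcript strand of the annotated isoforms, since introns were not part of the sequences used here. Grm5-202 holds it 2 times and Grm3-201 2 times, all in the coding sequence, and among coding transcripts within 10% of their lengths 88.0% and 54.4% hold it at least once. Grm2-201 holds 2, of which 1 lies in the coding sequence, inside the 834-nt segment that Grm2-203 lacks, and 1 in the 3′ UTR, with 71.7% of transcripts of its length holding it. Grm4-201 holds 1, in its 3′ UTR (70.4%), and Grm2-203 holds 0 (43.4%). Around 3 such matches, in capitals, the transcripts read as follows.
Grm2-201, coding sequence: ttcctctgctacTGCATGaccttcatcttc
Grm5-202, coding sequence: ctccggatataaTGCATGactatccaagca
Grm7-202, 3′ UTR: tgatctttggaaTGCATGccggtaatgtat
Grm7-202 holds 1 match, in its 3′ UTR (66.5%), where Grm7-201 holds 0 (56.1%). Grm8-201, Grm8-202 and Grm8-203 hold 0, with 52.3%, 64.8% and 58.7% of transcripts of their lengths holding it. The extra exons of Grm5-204 and Grm7-201 and the 55-nt segment of Grm8 hold 0 as well. These are matches of letters, and the tests above found no receptor isoform, with or without them, past the threshold.

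Genes that act with these receptors were taken from lists of signalling partners and of glutamate supply, which were chosen with earlier results of these data known. Of the 19 genes of group I signalling and scaffolding, 0 had an adjusted p under 0.05 in either direction, 2 had an unadjusted p under 0.05, both higher in N-cre;Fox1 mice (Homer1 and Rgs4), where 3.59% of all genes were higher by this measure, and 2 were higher without overlap (Homer1 and Trpc5), where 6.06% of all genes were. The list's median log2 change was 0.00, as over all genes. Of the 20 genes of group II and III signalling, 0 passed, 1 had an unadjusted p under 0.05, against 6.19% of all genes (Gnai3, log2 change 0.13) and 0 were without overlap, at a median of -0.01. Of the 12 genes of glutamate and NAAG supply and removal, 0 passed, and 2 had an unadjusted p under 0.05 and did not overlap, Slc1a2 higher and Slc17a6 lower, at a median of -0.02, where 6.19% of all genes had such a p and 12.2% did not overlap.

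The core transducers did not pass the threshold between genotypes. Gnaq, the G protein subunit that Grm5 uses, had a log2 change of -0.02 (SE 0.0457), and Plcb1, the phospholipase it activates, one of 0.00 (SE 0.0361). For the Gi/o-coupled receptors, Gnao1, an abundant G protein subunit of neurons, had -0.02 (SE 0.0433), and Kcnj6, a subunit of the GIRK potassium channels that they open, 0.06 (SE 0.106). Elfn1 and Elfn2, postsynaptic proteins that recruit group III receptors across the synapse, had -0.02 (SE 0.0437) and 0.05 (SE 0.0543). With all mice, the adjusted p of edgeR's test was at least 0.949 for each of these 6 genes. Without both mice with choroid plexus markers, the log2 change was 0.21 (SE 0.0929, edgeR adjusted p 0.871) for Kcnj6. For Elfn2 it was then 0.11 (SE 0.0508, edgeR adjusted p 0.899).

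Homer1, the scaffold that ties group I receptors to the calcium store, had normalized counts of 5582, 4757 and 4460 in N-cre and 5723, 5960 and 6451 in N-cre;Fox1 mice. The lowest N-cre;Fox1 mouse lay just above the highest N-cre mouse, N-cre replicate 1. The log2 change was 0.29 (SE 0.0900), and the adjusted p was 0.769 by edgeR, which did not pass the threshold, and 0.0372 by DESeq2's Wald test, which did. Of all 18924 genes, 50 passed in DESeq2's test and 5 in edgeR's. With each mouse left out in turn the log2 change lay between 0.23 and 0.40, and the lowest adjusted p in edgeR's test was 0.106.

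Among Homer1 isoforms, the higher count lay mostly on a short one. Homer1-204, with 558 coding nt, corresponds to Homer1a, the form induced by neuronal activity that lacks the coiled coil and uncouples group I receptors from the long forms. Its normalized counts were 1916, 1245 and 1099 in N-cre and 2228, 2525 and 2761 in N-cre;Fox1 mice, with no overlap. The log2 change was 0.82 (SE 0.217), at an unadjusted p of 0.00928 and an edgeR adjusted p of 0.945 among all isoforms. The long forms overlapped, Homer1-202 (1110 coding nt) at a log2 change of -0.15 (SE 0.0930) and Homer1-203 (1098 coding nt) at -0.02 (SE 0.0528). Whether the difference on Homer1-204 differs from that on the long forms was not tested.

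**Figure D4:**
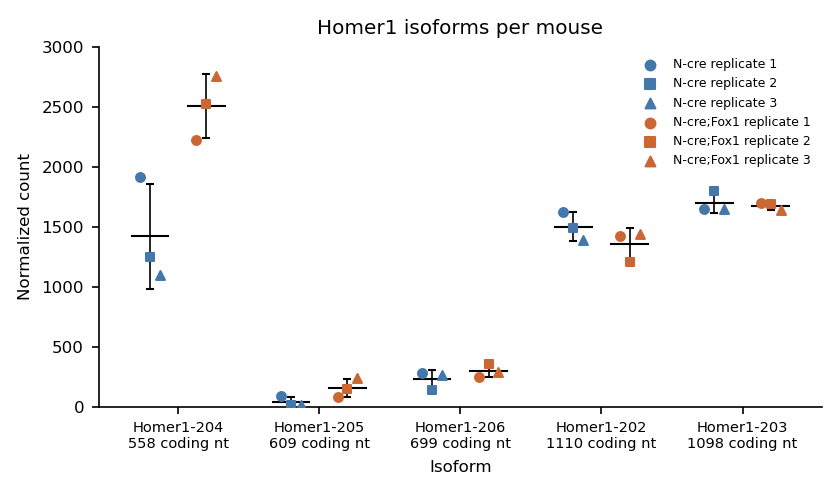
Normalized counts of 5 Homer1 isoforms in each mouse, with short forms before long forms and their coding length. Homer1-207, with 579 coding nt, is not drawn. Points are mice, bars the mean and SD of 3 mice per genotype. Homer1-204 lies between 1099 and 1916 in N-cre and between 2228 and 2761 in N-cre;Fox1 mice, while the long forms Homer1-202 and Homer1-203 overlap.

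Of the genes that supply or remove the ligands, Slc1a2, the main glutamate transporter of astrocytes, had normalized counts of 111819, 107315 and 105767 in N-cre and 120804, 113682 and 117856 in N-cre;Fox1 mice. The genotypes did not overlap, at a log2 change of 0.12 (SE 0.0407, edgeR adjusted p 0.769). Of the 6 astrocyte markers, Gfap, Aqp4 and Gja1 were also higher without overlap (log2 changes 0.38, 0.21 and 0.10), against 6.06% of all genes, while Fgfr3, Aldh1l1 and Slc4a4 overlapped, at log2 changes of -0.21, -0.14 and -0.03, and 0 of the 6 passed the threshold. The summed count of the list was at most 61654 in N-cre and at least 64586 in N-cre;Fox1 mice, and without Gfap the genotypes overlapped, at 36571 to 37350 and 36559 to 39847. Their part in the Slc1a2 value was not tested, and in bulk tissue fewer or more cells of a type cannot be told apart from less or more RNA per cell. Grm3, which astrocytes also express, overlapped between genotypes. Slc17a6, a vesicular glutamate transporter of subcortical neurons, had normalized counts of 1126, 1096 and 959 in N-cre and 859, 938 and 955 in N-cre;Fox1 mice, with a log2 change of -0.21 (SE 0.0735, edgeR adjusted p 0.769). Its groups were separated by a narrow gap, and thalamus markers overlapped between genotypes, with a summed count of 1865 to 2706 and 1978 to 2878.

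Folh1, which cleaves the group II ligand NAAG, had normalized counts of 289, 263 and 272 in N-cre and 218, 235 and 263 in N-cre;Fox1 mice, at a log2 change of -0.20 (SE 0.113, edgeR adjusted p 0.845). Rimkla, which makes NAAG, had a log2 change of 0.04 (SE 0.0561, edgeR adjusted p 0.962). Both overlapped between genotypes.

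The genes whose log2 CPM followed each receptor most closely over the 6 mice, among 13734 genes, were named as a description of these libraries. For Grm2 these were Kdm6a (Pearson r 0.986, Spearman rho 0.486) and Kank3 (r 0.984). Kdm6a, an X-linked gene that escapes X inactivation, had normalized counts of 1772 and 1659 in the mice with high Xist counts and 1262 to 1310 in the other 4, so that its r with Grm2 rests on those mice. For Grm3 they were Plxna3 (r 0.997) and Smn1 (r 0.994), for Grm4 Fhod3 (r 0.988) and Vill (r 0.985), for Grm5 Parn (r 0.990) and Mtpap (r 0.989), for Grm7 Ppa1 (r 0.994) and Isy1 (r 0.982), and for Grm8 Cbln4 (r 0.998) and Unc13c (r 0.993). With 6 points, 73 to 112 genes had an r above 0.9 with each receptor.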

How the data were processed

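RNA-seq of hippocampi from 3 N-cre and 3 N-cre;Fox1 mice was analysed. The authors prepared stranded total RNA libraries, used Cutadapt 1.18 for trimming and STAR 2.5.2b for mapping to mm10, and deposited RSEM 1.3.0 expected counts per isoform on GENCODE M16, neither normalized nor filtered. The strand setting of the counting is not given in the sources used here. Labels name replicates by number. Each library is from another mouse.

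Counts were summed per gene symbol for the gene tests, rounded, filtered with filterByExpr (minimum count 10, minimum total 15) and tested in R 4.3.3 with edgeR 4.0.16 (robust quasi-likelihood test, TMM, a term for genotype alone). P-values were Benjamini-Hochberg adjusted over all genes or isoforms, at a threshold of 0.05. The authors' EBSeq was not run. Shares were compared by exact permutation in SciPy 1.17.1. Transcript positions, lengths and sequences came from a later GENCODE release on mm10. In it 27 of 28 receptor isoforms have the same version. Intron sequences were not used here. The fits were tested on simulated data. Alternatives were DESeq2 1.42.0, limma-voom (limma 3.58.1), other normalizations and filters, unrounded counts, terms for Xist or replicate number, other lengths, protein-coding isoforms alone, and each mouse left out. Leaving out both mice with choroid plexus markers was added after the data were seen.

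Members, lists and tests were chosen with earlier results of these data known. The text names the 6 genes, their isoforms with a mean share of at least 5% or enough counts to be tested, 10 set partner genes (Homer1, Gnaq, Plcb1, Gnao1, Kcnj6, Elfn1, Elfn2, Slc1a2, Folh1 and Rimkla), partner genes past the threshold, and the 2 genes most like each receptor among those with a mean count of at least 100. Other genes were named after their values were seen. Marker lists also covered oligodendrocytes and their precursors, microglia, endothelium, CA1 and CA3 pyramidal cells, dentate granule cells, interneurons, thalamus and striatum. Depth was 40463587 to 62141336 counts per mouse. The spread among 3 mice per genotype limits precision for the abundant isoforms, and counting error adds to it for Grm8 and for minor isoforms.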

Additional observations from a re-analysis of the deposited data

How the results depend on the processing

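Under each alternative, 0 of 6 receptor genes and 0 of the receptor isoforms tested passed the threshold (lowest adjusted p 0.645 for genes, Grm8 without N-cre;Fox1 replicate 2, and 0.481 for isoforms, Grm8-202 without N-cre replicate 1), and the order of levels kept its 5 separate steps. Of the partner genes 1, Homer1, passed in DESeq2's Wald test (log2 fold change 0.29), where 50 of all 18924 genes passed, and 0 in the others. The count of isoform shares without overlap was 0 to 4 with each mouse left out, the 4 without N-cre replicate 1. It was 2 without both mice with choroid plexus markers. Groups of fewer mice separate more readily. No share over all isoforms was taken in these settings, so that these counts have no background to be read against. Replicate numbers did not pair the mice throughout (correlations of deviations over genes 0.496, -0.210 and -0.358 for numbers 1, 2 and 3). The mice with number 1, which deviated alike, are those with high Xist counts. With the replicate block 0 receptor genes, 0 receptor isoforms and 0 partner genes passed, and 0 shares differed in 1 direction in all 3 numbers.

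Small values changed sign, none past the threshold, and the cause was not tested. Grm4-202 had a log2 fold change of 1.58 in limma-voom, 0.26 with the replicate block and 0.27 with the Xist term, and Plcb1 -0.0064 with upper quartile normalization. Share differences were 0.18 points for Grm2-201 and -1.74 for Grm8-201 on counts per length, and 0.19 for Grm4-201 over protein-coding isoforms. Without both mice with choroid plexus markers, log2 fold changes were 0.0277 for Gnaq, 0.0234 for Gnao1, 0.13 for Grm2-203, 0.59 for Grm4-202, -0.0893 for Grm5-204 and -0.001 for Grm7-201, and share differences 0.61 points for Grm4-202, 0.0693 for Grm5-202, -0.0304 for Grm5-204 and -2.95 for Grm8-201. With each mouse left out in turn, log2 fold changes spanned 0 for Elfn2 (-0.0013 to 0.10), Gnao1 (-0.039 to 0.02), Gnaq (-0.0515 to 0.0351), Kcnj6 (-0.0338 to 0.16), Plcb1 (-0.0127 to 0.0299), Grm2 (-0.0808 to 0.0598), Grm7 (-0.0383 to 0.0035), Grm2-201 (-0.0765 to 0.0623), Grm2-203 (-0.19 to 0.14), Grm4-202 (-0.88 to 0.38), Grm5-204 (-0.0863 to 0.25), Grm7-204 (-0.26 to 0.86) and Grm8-201 (-0.52 to 0.11). So did share differences in points for Grm2-201 (-1.50 to 1.16), Grm2-203 (-1.12 to 1.53), Grm4-201 (-0.81 to 0.61), Grm4-202 (-0.91 to 0.37), Grm5-202 (-0.28 to 0.0632), Grm5-204 (-0.0455 to 0.31), Grm7-204 (-0.17 to 0.40) and Grm8-201 (-2.05 to 1.46). The number of mice, depth for Grm8 and rare forms, and RSEM's division of shared reads limit these values. Over all genes, the count past the threshold was 5 in the main test and 2 to 50 under the alternatives, and over all isoforms 0 and 0 to 215.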
